A study of Macaca mulatta and Mus musculus with 5 samples.

Results

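Plasmacytoid dendritic cells were taken from a single-cell library of mouse meninges as the barcodes with at least 300 detected genes, at least 3 UMIs (counted RNA molecules) of Siglech, at least 1 of Irf8, none of Cd3e and at most 2 of Cd79a. The rule found 296 cells among 13933 barcodes that passed the gene minimum, a share of 2.12% (exact binomial 95% interval 1.89 to 2.38%), in a series of 34959 barcodes. Of these, 9 went against the label, with high complement and macrophage genes and almost no Bst2, and the other 287 all held Bst2 and Tcf4. The mouse library was made from meninges of male C57BL/6 mice aged 2, 21 and 48 days, sorted (written CD45–CD11b– in the labels, where the dash may be a minus or a separator), labelled with hashtag antibodies and pooled, with 30000 cells loaded per channel, and the series also holds macaque meninges and spleen. Hashtag calls were not used here, so the 3 ages cannot be told apart in any value given. There was 1 library and no replicate, so no test was made: intervals cover counting error only, and cells of 1 library are not replicates.

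Plasmacytoid dendritic cells sense viral RNA and DNA in endosomes through Toll-like receptors and are known for large output of type I interferon. Their identity is held by the E protein TCF4 (E2-2), with IRF8 and RUNX2. In mouse they express the lectin SIGLEC-H, BST2 and the chemokine receptor CCR9. They can arise from lymphoid as well as myeloid progenitors, and many carry traces of lymphoid gene activity, such as transcripts of Dntt, the gene of terminal deoxynucleotidyl transferase, which adds bases without a template at V(D)J joints. Igll1 encodes the lambda5 part of the surrogate light chain and marks pro-B and early pre-B cells.

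The 296 cells held 4499158 UMIs. They were deeper than the rest of the library, with a median of 14216 UMIs and 3612.5 genes per cell against 6249 UMIs and 2179 genes in the other 13637 cells. The lowest member had 3482 UMIs and the highest 61556. The median mitochondrial share of members was 5.22%. The mouse library shared 16 to 28 barcode sequences with each macaque library. Scrublet called 175 doublets (1.26% of the mouse cells), of which 0 were members.

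The limit of 3 Siglech UMIs fell in a sparse range. Siglech UMIs per member ran from 3 through a median of 35 to 86, and 291 of the 296 members had 6 or more. The 5 members with 3 to 5 Siglech UMIs had a median of 32 Bst2 UMIs and 15 Tcf4 UMIs. The 7 barcodes just outside, with 2 Siglech UMIs, had medians of 5 Bst2 UMIs and 18 Tcf4 UMIs. A further 27 barcodes with at least 3 Siglech UMIs were left out for Cd3e, 32 for Cd79a and 1 for Irf8. The median depths of the barcodes left out for Cd3e and Cd79a were 21394 and 18836 UMIs, above the 14216 of the members.

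The 9 cells that went against the label were set apart by C1qa, a chain of the complement protein C1q that tissue macrophages and microglia make. C1qa UMIs per cell ran from 57 through a median of 75 to 104 in these 9, and from 0 to 2 in the other 287, so that no cell lay between. The same 9 held Csf1r, the receptor of macrophage growth factor, at 3658 CPM (a gene's UMIs per 1000000 of the group's UMIs) against 15.7 CPM in the other members, and Cx3cr1, the fractalkine receptor, at 3810 against 14.8 CPM. Trem2, a lipid receptor of microglia, was at 2017 against 0.9 CPM, and Sparc, a matrix protein, at 4105 against 0 CPM. Bst2 was at 89.2 CPM in the 9 cells against 4077 CPM, and was at 0 UMIs in 5 of them. Cox6a2 and Flt3 were at 0 UMIs in all 9. Siglech, which chose the cells and which microglia are known to express too, was at 1338 against 2427 CPM. Of the 10 monocyte and macrophage markers listed for this work only Ms4a7 was at 0 in members, and the summed level of the list ran from 19244 to 30334 CPM per cell in the 9 cells. Of the other genes described below, Id2, Batf3, Cd83, Csf1r, S1pr1, Bcl2a1b and Bcl2a1d also had levels that moved by a clear margin without the 9 cells, and these are given with and without them.

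**Figure D1:**
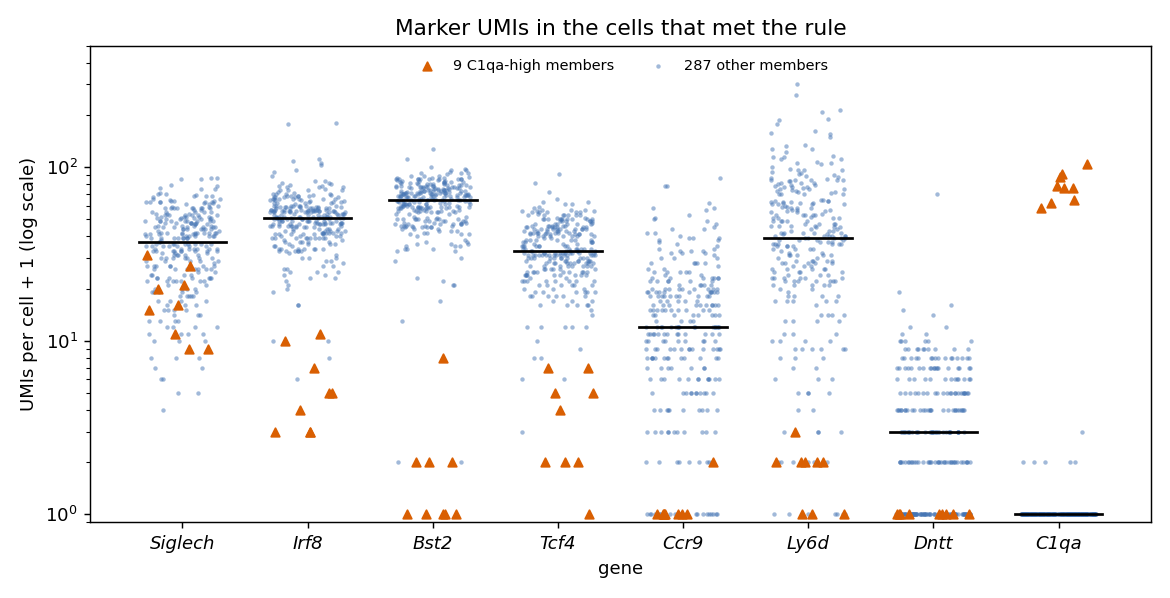
UMIs per cell plus 1 (log axis) for 8 genes in the cells that met the rule. Blue points are the 287 other members, orange triangles the 9 C1qa-high members, and black bars the medians of the 287. The 9 cells share Siglech with the rest but have 57 to 104 C1qa UMIs and at most 7 of Bst2.

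Bst2, the tetherin that holds budding viruses at the cell surface, was among the most abundant transcripts of the members apart from ribosomal and mitochondrial ones. It had 3977 CPM, against 104.8 CPM in the rest. Its UMIs per cell ran from 0 through a median of 64 to 127, and from 1 to 127 in the 287 cells. Tcf4 had 2165 CPM against 198.8 CPM in the rest, and a median of 31 UMIs per cell. Ccr9, which binds the gut and thymus chemokine CCL25, had 946.6 CPM against 12.3 CPM and was seen in 265 of 296 members, with a median of 11 and a highest value of 86 UMIs. Of the 287 cells, 264 had Ccr9. The most abundant genes also included the ferritin gene Fth1 (6562 against 1684 CPM in the rest), the adaptor Tyrobp (4161 against 146.4 CPM), the invariant chain Cd74 (3399 against 1713 CPM) and the lysosomal Psap (3224 against 308.3 CPM).

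Klk1, Cd300c, Lair1 and Cox6a2 were among the genes with the largest ratios over the rest of the library. Of 8092 genes with a mean of at least 10 CPM over members and the rest, 968 were at least 2-fold higher in members, which is 12% of the genes, and 838 at least 2-fold lower, which is 10.4%. The cells were chosen within the same library by their RNA, so these ratios are a description. The rest also held 403 barcodes with Siglech UMIs, 60 of them with 3 or more, which the other limits of the rule left out. These 403 barcodes gave 67.6% of the Klk1 UMIs of the rest, 87.6% of those of Cd209d and 52.0% of those of Ccr9. Against the 13234 barcodes with no Siglech UMI the ratio was 445.2 for Klk1, 657.4 for Cd209d and 152.8 for Ccr9, and those of Atp2a1, Cd209a, Cd300c, Cdh5, Clec9a, Clec10a, Cox6a2, Klra17, Lair1, Mpeg1 and Pltp were also well above the values given here. The counts of higher and lower genes were then 983 and 846. Klk1, a tissue kallikrein protease, had 339.2 CPM against 2.25 CPM in the rest, a ratio of 151. It was seen in only 158 members, and a paralogue, Klk1b27, also ranked among the 25 highest ratios, so reads shared between them are uncertain. Cd300c, an immunoglobulin-family receptor, had 364.1 against 3.57 CPM and was seen in 92.9% of members. Lair1, an inhibitory collagen receptor, had 642.1 against 7.89 CPM. Cox6a2, a cytochrome c oxidase subunit otherwise known from muscle, had 1533 against 26.1 CPM.

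Atp2a1, the calcium pump of fast muscle, had 130.2 CPM in members against 1.54 CPM in the rest, and Pltp, a phospholipid transfer protein, 381.6 against 3.77 CPM. Cdh5, the cadherin of endothelial junctions, had 121.4 against 1.72 CPM and was seen in 68.2% of members. The other endothelial and stromal markers of the same list gave no such level: Col1a1, Col1a2, Dcn and Igfbp7 were at 0 UMIs in members, and Pecam1 was at 94.2 CPM against 84.9 CPM. Mpeg1, a pore-forming protein of phagocytes, was seen in every member, at 1152 against 15.9 CPM. The C-type lectins Cd209d (311.6 against 3.65 CPM), Cd209a (213.6 against 3.78 CPM) and Clec10a (192.0 against 3.09 CPM) each stood more than 50-fold over the rest. Fcrls (61.8 CPM) and Sparc (102.2 CPM) also ranked among the 25, but were seen in 10 and 9 members. Without the C1qa-high cells the log2 ratio of Fcrls was -1.91, and Sparc was at 0 UMIs, for which the limit of 3 counts gives a log2 ratio of at most -1.21.

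All 17 surface genes of plasmacytoid dendritic cells other than Siglech were at least 2-fold higher in members than in the rest, with a median log2 ratio of 4.77 against -0.09 over all genes tested. They included Klra17, which encodes the Ly49Q receptor (99.4 against 1.16 CPM), the class II receptor Lag3 (151.1 CPM, a ratio of 32.9) and Ly6c2 (1573 against 169.9 CPM). The smallest ratio was that of Ly6d, 2.40, and the B-lineage cells of the library held it at 1830 CPM. Flt3, the receptor of the growth factor that dendritic cells need, had 146.0 CPM in members against 9.62 CPM. Without the 9 C1qa-high cells the count was again 17 of 17. The list was drawn up to describe such cells. Some of its genes, such as Klra17 and Lag3, passed the 10 CPM mean only through their level in members. The filter therefore favours genes high in members, although 0 genes of this list fell under the minimum. For comparison, 12% of all genes tested were at least 2-fold higher in members and 10.4% lower.

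T-cell coreceptor genes were also present. Cd4 had 106.2 CPM in members against 64.4 CPM in cells with Cd3e, and Cd8b1 had 177.8 CPM against 279.5 CPM. Cd8a had 89.8 against 202.8 CPM. The CD3 genes were not: Cd3d had 2.67 CPM and Cd3g 4.89 CPM in members, against 859.6 CPM of Cd3d in the cells with Cd3e. The rule left out barcodes with Cd3e and the other cells were chosen by Cd3e, so this contrast was largely set by the choice of cells. Mouse plasmacytoid dendritic cells are known to carry CD4 and CD8 alpha on the surface.

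Among transcription regulators 5 of 15 were at least 2-fold higher in members and 4 at least 2-fold lower, with a median log2 ratio of 0.43. The shares over all genes tested were 12% and 10.4%. The higher ones were Tcf4 (ratio 10.9), Runx2 (826.4 against 24.3 CPM), Irf7, the inducer of interferon genes (137.8 against 14.6 CPM), Bcl11a, which acts upstream of Tcf4 (490.1 against 117.5 CPM), and Nfil3 (ratio 2.22). The lower ones were Tcf3, which encodes E2A (56.0 against 281.3 CPM), Ets1 (ratio 0.36), and the E protein inhibitors Id2 (87.1 against 255.0 CPM) and Id3 (26.9 against 115.9 CPM). Without the C1qa-high cells, which held Id2 at 1553 CPM, the level of Id2 in members was 49.7 CPM. Spib, a PU.1 relative shared by B cells and plasmacytoid dendritic cells, had 294.1 CPM in members and 301.1 CPM in the rest, a ratio of 0.98. Of 11 markers of conventional dendritic cells 5 passed the minimum level, of which 3 were at least 2-fold higher in members (Cd209a, Itgax at 78.0 against 4.39 CPM, and Clec9a, a lectin that mouse plasmacytoid dendritic cells also carry, at 52.9 against 1.18 CPM) and 2 lower. The 3 higher ones passed the minimum only through their level in members, so the filter favours genes high in members. The summed level of all 11 markers was 410.7 against 222.3 CPM. Among those under the minimum, the regulators Batf3 and Zbtb46 stood at 1.78 and 1.56 CPM in members, with Batf3 at 0.23 CPM without the C1qa-high cells, and Xcr1 at 0.67 CPM.

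Of 17 nucleic acid sensing genes 11 were at least 2-fold higher in members, 5 lay between and 1 was lower, with a median log2 ratio of 1.22. Over all genes tested, 12% were at least 2-fold higher and 10.4% lower. Tlr7, the endosomal receptor of single-stranded RNA, had 102.5 against 2.31 CPM and was seen in 203 of 296 members. It passed the 10 CPM mean only through its level in members. The transporter Slc15a4 had 114.0 against 41.7 CPM, the receptor escort Unc93b1 665.2 against 263.1 CPM, and the nuclease gene Pld4 781.7 against 58.3 CPM. Ctsl, a protease that matures these receptors, had 1164 against 25.1 CPM. Tlr9, the DNA receptor, had 13 UMIs in all, 2.89 CPM, and Ddx58, which encodes the cytosolic sensor RIG-I, was lower in members (3.11 against 30.8 CPM). Ifna1, Ifna2, Ifna4, Ifna5, Ifna6, Ifna13 and Ifnb1 were at 0 UMIs in the 296 members, which by the limit of 3 counts allows a UMI in up to 1.01% of such cells.

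Ccl4, the gene of an inflammatory chemokine, had 2293 CPM in members against 162.9 CPM in the rest, and was seen in 259 of 296 members. Basophil-type cells with at least 3 Mcpt8 UMIs held more, at 7092 CPM. Ccl5 was lower in members, at 16.4 against 616.5 CPM. Il12a had 59.1 against 88.2 CPM, and 9 of the 18 cytokine and chemokine genes listed were at 0 in members.

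Of 13 type I interferon response genes with a mean of at least 10 CPM over members and the rest, 8 were at least 2-fold higher in members. The number at least 2-fold lower was 0, and the median log2 ratio was 1.09. Over all genes tested, 12% were higher and 10.4% lower. Bst2, a marker of these cells, was 1 of the 8. Ifi44, Usp18 and Mx1 (19.6 against 3.51 CPM) passed the minimum only through their level in members, so the filter favours genes high in members. Stat2 had 73.8 against 17.7 CPM, Usp18 27.8 against 4.76 CPM and Ifi44 43.8 against 1.67 CPM. Other members of the list were under the 10 CPM mean and not counted, and some of these were lower in members. Rtp4 was at 0.89 CPM in members against 11.8 CPM in the rest, and Ifit1 at 2.44 against 7.41 CPM. Ifit3 was at 3.56 against 6.51 CPM and Oas1a at 2.44 against 4.26 CPM. Others were higher in members, such as Rsad2 (6.22 against 3.65 CPM) and Oasl2 (15.1 against 4.19 CPM).

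The list counts that follow stand beside shares over all genes tested of 12% at least 2-fold higher and 10.4% at least 2-fold lower. Of 13 class II and costimulation genes, members held 7 at a level at least 2-fold higher and 3 at a lower one. H2-Aa was at 1435 against 400.1 CPM and the protease Ctss at 772.6 against 103.0 CPM. The costimulators Cd40 (2.89 against 20.7 CPM) and Cd83 (19.6 against 48.4 CPM) were lower, with Cd83 at 8.43 CPM in members without the C1qa-high cells. Homing receptors were higher in 8 of 14 and lower in 2, with Itgb7 at 212.7 against 74.9 CPM, and with the lymph node exit receptor S1pr1 (3.11 against 67.7 CPM, and 1.82 CPM in members without the C1qa-high cells) and Ccr7 (6.89 against 103.9 CPM) lower. Among 15 secretory pathway genes 6 stood at least 2-fold higher and 0 lower, with Xbp1, the regulator of the endoplasmic reticulum, at 283.2 against 56.1 CPM. In the BCL2 family the BH3 gene Pmaip1 was higher (70.0 against 13.8 CPM), and Bcl2 (51.1 against 146.3 CPM), Bcl2l1, Bcl2a1b and Bcl2a1d were lower. The last 2 had 6.67 and 1.56 CPM in members, and 1.82 and 0.91 CPM without the C1qa-high cells. Bcl2a1b and Bcl2a1d are near-identical copies whose reads cannot be split with certainty. Of 16 immediate early genes 3 were at least 2-fold higher and 0 lower, but without the C1qa-high cells, where the list summed to 53476 CPM, the count was 0 higher and 3 lower. Over all genes tested without those cells, 11.6% were at least 2-fold higher and 10.6% lower.

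**Figure D2:**
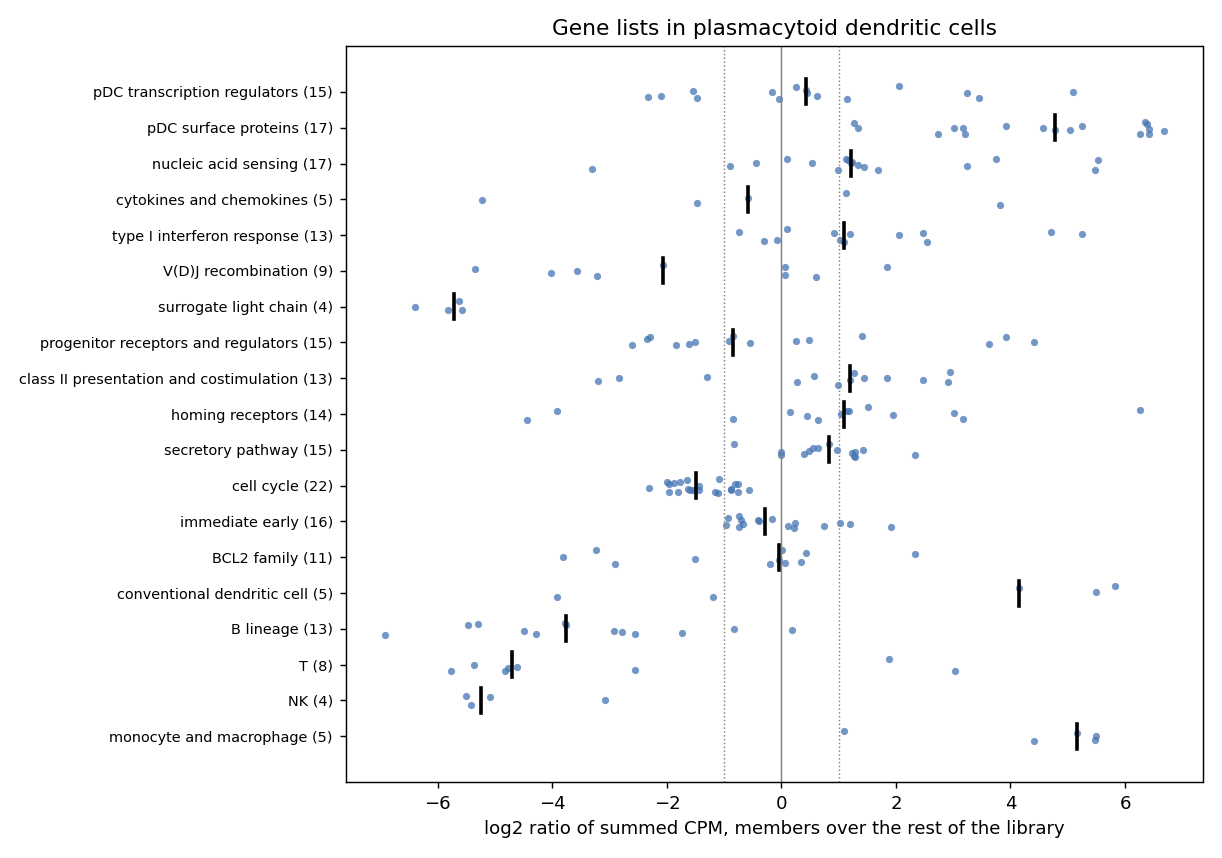
Each point is 1 gene with a mean of at least 10 CPM, placed by the log2 ratio of its summed CPM in the 296 members over the rest of the library. Black bars are list medians, dotted lines mark a 2-fold ratio, and the number of genes is in brackets. Surface genes lie above a log2 ratio of 1 throughout, and surrogate light chain genes lie below -5. The macrophage list is high through the 9 C1qa-high cells.

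Dntt was found in 196 of the 296 members, and 184 of them (62.2%, exact 95% interval 56.4 to 67.7%) carried it without Igll1. Dntt lies on chromosome 19 (GRCm38, 41029275 to 41059525, plus strand) and Igll1 on chromosome 16 (16860671 to 16863985, minus strand). Dntt UMIs per member ran from 0 through a median of 2 to 69. There were 100 members with none, 38 with 1, 34 with 2, 64 with 3 to 5, 53 with 6 to 10 and 7 with more. The cell with 69 was alone, since the next held 18, and without it the level of members was 181.0 CPM in place of 195.1 CPM. Igll1 was found in 19 members with 22 UMIs in all.

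With every cell thinned to 2000 UMIs, Dntt without Igll1 was found in 96 of 296 members, or 32.4% (exact 95% interval 27.1 to 38.1%). The same was found in 1.56% of cells with Cd3e and 0.41% of NK cells with Ncr1, which serve as background. In all B-lineage cells (at least 3 Cd79a UMIs) the share was 1.52%, while 6.10% of them held both genes. Igll1 was found in 1.01% of thinned members, against 1.96% of T and 3.67% of NK cells, so that its share in members lay at or below background. Dntt in pro-B cells, chosen by Dntt, Igll1 and Cd79a, stood at 1273 CPM, above the 195.1 CPM of the plasmacytoid cells. Myeloid cells with at least 3 Mpo UMIs held Dntt at 127.0 CPM, and 5 cells gave 73.2% of those UMIs. Without thinning, at a median of 35912 UMIs, Dntt was found in 26 of these 100 cells. With thinning, Dntt without Igll1 was found in 5 of 100 (exact 95% interval 1.64 to 11.3%).

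Some lymphoid genes of the members stood above the level in T and NK cells and others at or below it. Above it, besides Dntt, stood Ighm, the mu heavy chain gene (1165 CPM in members, against 258.8 CPM in T and 303.2 CPM in NK cells), Ly6d (3064 against 38.9 and 38.2 CPM) and the B-cell adaptor Blnk (324.7 against 9.45 and 9.36 CPM). Fcrla had 216.7 CPM in members against 11.5 CPM in NK cells. Above it by smaller margins stood Cd79b, part of the B-cell receptor (96.5 CPM in members, against 55.8 CPM in T and 45.0 CPM in NK cells), and the light chain gene Igkc (245.2 against 198.0 and 134.3 CPM). B-lineage cells held Cd79b at 1904 CPM and Igkc at 7014 CPM. Il7r, the receptor of the lymphoid growth factor interleukin 7, had 183.4 CPM in members against 13.8 CPM in the Mpo cells, but NK cells held 128.9 CPM and T cells, which use it, 486.4 CPM. At or below the T-cell level stood Igll1 (4.89 against 9.07 CPM in T cells), Vpreb1 (7.56 against 11.7 CPM), Vpreb3 (34.7 against 61.1 CPM), Rag1 (3.56 against 5.31 CPM), and the B-cell factors Ebf1 (16.9 against 30.3 CPM) and Pax5 (6.67 against 8.64 CPM). Of 13 B-lineage genes other than Cd79a 0 were at least 2-fold higher than in the rest of the library and 11 were lower. Over all genes tested, 12% were higher and 10.4% lower. B-lineage cells made up 9563 of the 13637 cells of the rest, and the rule allowed members at most 2 Cd79a UMIs. This contrast was therefore largely set by the choice of cells.

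Of 9 V(D)J recombination genes, Dntt among them with a ratio of 1.52, 1 was at least 2-fold higher in members and 5 were lower. Over all genes tested, 12% were higher and 10.4% lower, so 1 higher gene of 9 lies near the share of all genes. The higher one was Dclre1c, which encodes the hairpin opener Artemis (78.5 against 21.8 CPM, seen in 55.4% of members). The lower ones included Rag1, Rag2 (2.67 against 24.8 CPM), the ligase Lig4 (2.89 against 46.8 CPM) and the polymerase Polm (5.78 against 69.0 CPM). All 4 surrogate light chain genes were lower.

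**Figure D3:**
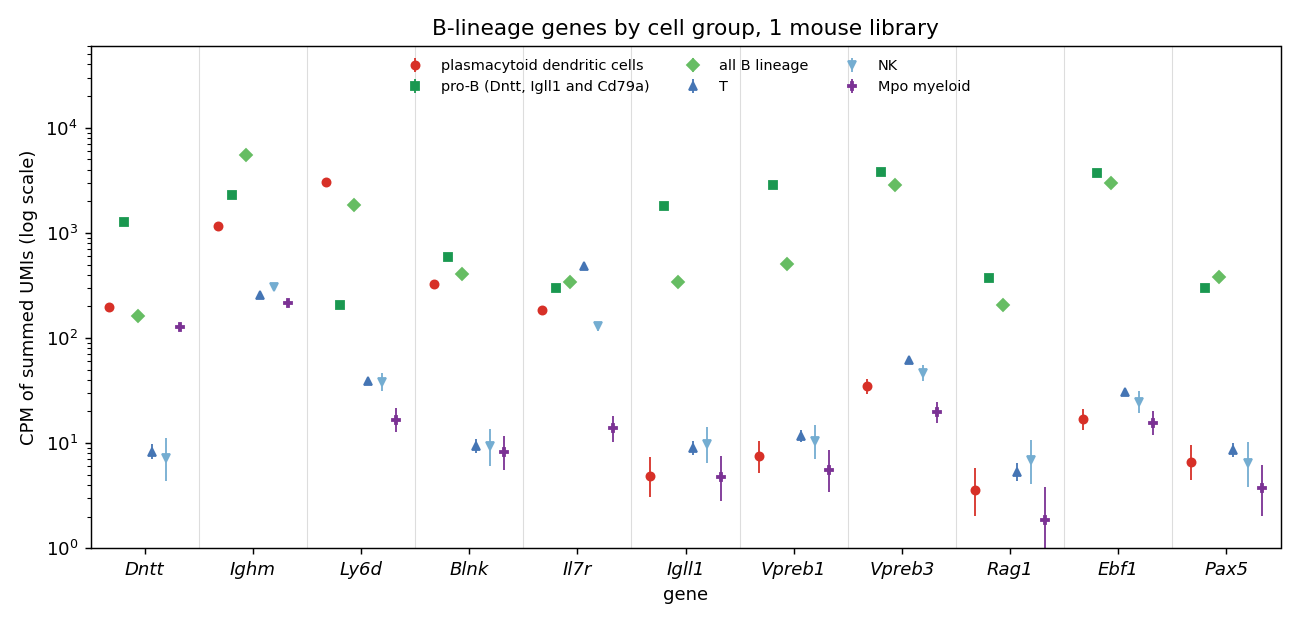
CPM of summed UMIs (log axis) for 11 genes in 6 groups of cells from the mouse library, with plasmacytoid dendritic cells in red and first in each column. Bars are exact 95% Poisson intervals and cover counting error only. Dntt, Ighm, Ly6d and Blnk lie above the T and NK levels in the plasmacytoid cells, and Igll1 to Pax5 lie at or near them.

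The 296 members fell into 5 sub-clusters of 83, 77, 73, 54 and 9 cells, which are left unnamed, and whose leading genes are descriptions because the same cells were clustered. Sub-cluster 5 was the 9 C1qa-high cells. Sub-clusters 1 and 3 were high in class II genes, with H2-Aa at 2505 and 2517 CPM, against 648.8 CPM in sub-cluster 2 and 167.2 CPM in sub-cluster 4. They also held most Cd8b1 (346.7 and 317.3 CPM, against 41.5 and 12.1 CPM) and Klk1 (550.1 and 638.4 CPM, against 198.4 and 4.31 CPM). Sub-cluster 1 was led by Fam46c, the NF-kB brake Tnfaip3 and Ccl4, with Ccl4 at 4950 CPM in it and 934.1 to 1901 CPM in sub-clusters 2 to 4. Sub-cluster 3 was led by Robo3, Angptl7 and Cd209d, and held the most Dntt, at 316.4 CPM in 86.3% of its cells (exact 95% interval 76.2 to 93.2%).

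Sub-cluster 2 was led by Hbb-bs, Isg15 and Slfn5. Isg15 was at 70.9 CPM in it and 6.89 to 12.3 CPM in sub-clusters 1, 3 and 4, and was seen in 17 of its 77 cells, of which 1 gave 28.6% of the UMIs. Hbb-bs, a globin gene of red cells, reached 319.9 CPM, but 1 cell gave 93.0% of these UMIs. The 5 erythroid markers summed to 0 to 26020 CPM per cell in sub-cluster 2 and to 0 to 419.3 CPM in sub-cluster 1. Their part in the other values of sub-cluster 2 was not tested.

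Sub-cluster 4 held most of the cycling cells and less Ccr9 and Bst2 than sub-clusters 1 to 3. Mki67, a nuclear protein of dividing cells, was at 351.6 CPM in it, in 27 of 54 cells, against 2.83 to 6.07 CPM in sub-clusters 1 to 3. Members with at least 3 Mki67 UMIs numbered 22 and made up 7.67% of the 287 cells, and 21 of them lay here. Cell cycle genes as a list were still lower in members than in the rest in 16 of 22 and higher in 0. Over all genes tested, 10.4% were at least 2-fold lower and 12% higher. The list summed to 2768 CPM in members, against 8789 CPM in B-lineage cells and 9644 CPM in pro-B cells. In T cells it summed to 2314 CPM and in NK cells to 3658 CPM, so members were not low against T cells. Ccr9 was at 269.7 CPM in sub-cluster 4 and in 61.1% of its cells, against 984.9 to 1379 CPM in sub-clusters 1 to 3. Dntt was found in 33.3% of its cells (exact 95% interval 21.1 to 47.5%), although its median depth of 17516 UMIs was the highest of the 5. Of its Dntt UMIs 61.1% came from the 1 cell with 69. Bst2 was at 2502 CPM, against 4272 to 5072 CPM. Flt3 was at 193.0 CPM, against 105.1 to 155.8 CPM in sub-clusters 1 to 3, and Itgax, which encodes CD11c, at 116.3 CPM against 62.3 to 74.9 CPM.

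Cx3cr1 and Csf1r, receptors of other myeloid cells, were also found in sub-cluster 4 and in at most 2 cells of each of sub-clusters 1 to 3. Cx3cr1 was seen in 23 of its 54 cells, at 55.1 CPM against 0 to 0.85 CPM in sub-clusters 1 to 3, and Csf1r in 16 cells, at 57.7 CPM against 0 to 1.70 CPM. The 6 markers listed for transitional dendritic cells, Cx3cr1 among them, summed to 1663 CPM in sub-cluster 4. They summed to 407.0 to 617.4 CPM in sub-clusters 1 to 3 and to 4354 CPM in sub-cluster 5, where Cx3cr1 alone was at 3810 CPM. The same list summed to 1062 CPM in the rest of the library and to 2763 CPM in pro-B cells. It includes Crip1, at 591.0 CPM in members and 979.4 CPM in the rest, so its sum is not particular to dendritic cells. Of these markers, Klf4 was at 160.3 CPM in sub-cluster 4 against 48.6 to 126.3 CPM, while Zbtb46 was seen in only 1 of its cells. Siglech, which chose the cells, was at 1034 CPM in sub-cluster 4 against 2561 to 3376 CPM in sub-clusters 1 to 3. The 10 monocyte and macrophage markers summed to 0 to 7115 CPM per cell in sub-cluster 4, with a median of 0 CPM. Their part in the lower Ccr9 and Bst2 of sub-cluster 4 was not tested. Its Lyz2 level of 377.4 CPM rested on 1 cell with 416 Lyz2 UMIs, which was also the deepest member, with 61556 UMIs, 51 of Mpo, 104 of Prtn3 and 57 of Siglech. Scrublet did not call that barcode a doublet. Another cell gave 65.5% of its H2-Aa. The summed level of the 8 neutrophil and myeloid progenitor markers ran from 0 to 3509 CPM per cell in sub-cluster 4, and from 0 to 138.5 CPM in sub-cluster 2. Its median was 0 CPM in both.

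**Figure D4:**
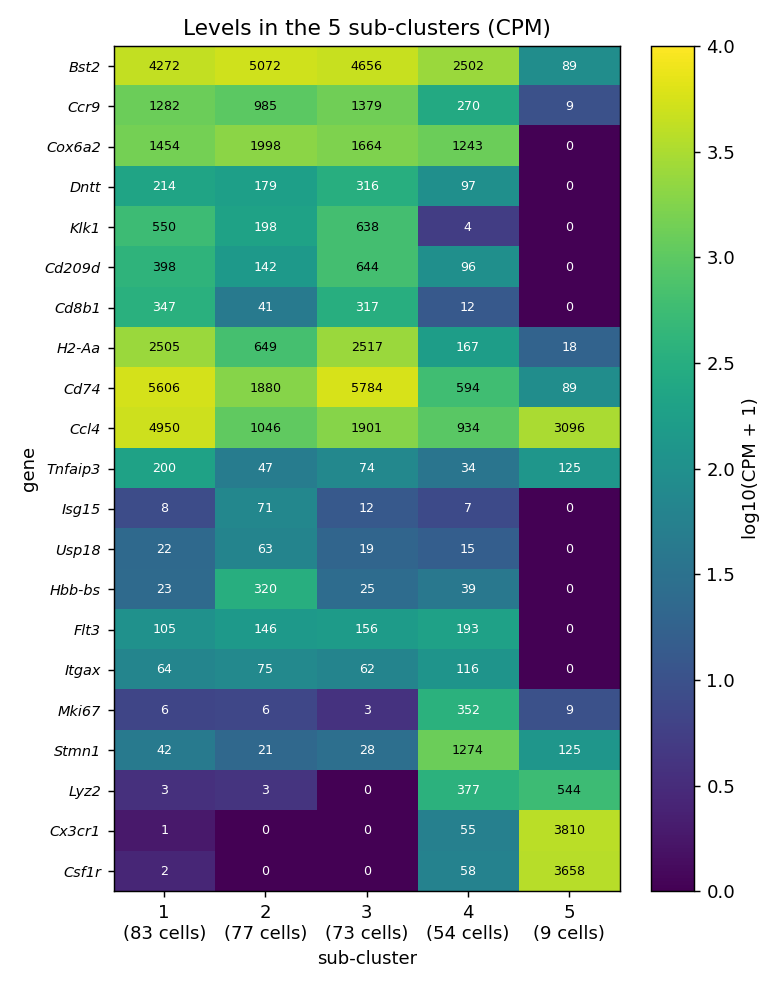
CPM of summed UMIs of 21 genes (rows) in the 5 sub-clusters of the 296 members (columns, with their number of cells), coloured by log10(CPM + 1). Class II genes, Klk1 and Cd8b1 are highest in sub-clusters 1 and 3, cycling genes in sub-cluster 4, and Cx3cr1 and Csf1r in sub-cluster 5.

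The 196 cells with Dntt had a median of 14319 UMIs and the 100 without had 14031. Of 5887 genes with a mean of at least 20 CPM, 74 were at least 2-fold higher with Dntt (1.26%) and 169 lower (2.87%). The lowest ratios were those of the C1qa-high cells, none of which held Dntt, with C1qb at 1.02 CPM in cells with Dntt against 481.2 CPM in cells without and Fcrls at 0.34 against 176.8 CPM. Without those 9 cells 85 of 5834 genes were higher (1.46%) and 113 lower (1.94%). Members of sub-clusters 1 to 3 alone gave 38 higher and 22 lower of 5634, and those of sub-cluster 4, with 18 cells against 36, gave 206 higher and 195 lower of 6077. With cells thinned to 2000 UMIs before the split, 315 were higher and 433 lower of 5809.

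Without the C1qa-high cells, Klk1 was higher with Dntt, at 449.1 CPM against 143.7 CPM in cells without Dntt, as were the class I genes H2-Q7 (542.9 against 191.1 CPM), H2-Q4 (174.6 against 68.0 CPM) and H2-Q6 (121.1 against 48.8 CPM), close relatives whose reads may be shared. Cd8b1 (227.8 against 90.7 CPM) and Rgs1, a brake on chemokine signals (247.6 against 87.3 CPM), were higher too. Lyz2 headed this order only through the 1 cell that gave 93.7% of its UMIs. Class II genes were at least 2-fold higher with Dntt in 5 of 9 and lower in 0. Cell cycle genes were at least 2-fold lower with Dntt in 16 of 21 and higher in 0, with the linker histone gene Hist1h1b, also among the 10 lowest ratios, at 24.2 against 142.3 CPM. Bcl2 had 28.0 against 101.0 CPM. Sub-cluster 4, with Dntt in 33.3% of its cells, was itself low in Klk1 (4.31 CPM), Cd8b1 (12.1 CPM) and H2-Q7 (93.9 CPM). H2-Q7 was at 333.0 to 700.1 CPM in sub-clusters 1 to 3. The part of sub-cluster 4 in these ratios was not tested.

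Within sub-clusters 1 to 3 the counts were 0 and 0 of 9 for class II genes and 0 and 0 of 6 for cell cycle genes. They were also 0 and 0 of 6 for BCL2 family genes, and 0 and 0 of 2 for the listed T-cell genes. There Fam43a (118.4 CPM with Dntt, against 54.2 CPM without), Ly6a, the Sca-1 gene (708.9 against 360.6 CPM), Satb1, a chromatin organiser of lymphoid cells (101.0 against 49.9 CPM), and Klra17 (143.0 against 74.1 CPM) were among the 10 highest ratios.

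Among all 296 members, Rag1 was found in 7 of the 196 with Dntt and 9 of the 100 without, and Igll1 in 12 and in 7. With cells thinned to 2000 UMIs, Ccr9 was found in 78.1% of members with Dntt and 52.0% of those without. Without the C1qa-high cells these shares were 78.1 and 57.1%, and within sub-clusters 1 to 3 they were 82.6 and 78.2%. Thinned in the same way, Il7r was found in 38.3% of members with Dntt and 18.0% of those without. Without the C1qa-high cells these shares were 38.3 and 19.8%. Within sub-clusters 1 to 3 they were 39.3% (exact 95% interval 32.1 to 46.9%) and 23.6% (13.2 to 37.0%), and without thinning 85.4 and 80.0%.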

How the data were processed

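The authors deposited a table of raw UMI counts with genes in rows and barcodes in columns, made with Cell Ranger and the build mm10 per the submitters' processing notes. Version and counting settings are not given in the sources used here. From the 31017 genes of the mouse table, UMIs were summed over groups of cells and divided by the group's total (CPM), with Python 3.11.15, numpy 2.4.6, scipy 1.17.1 and pandas 2.3.3. A sum of 0 was set to 3 counts for ratios. The B-lineage, pro-B, T, NK, Mpo and Mcpt8 groups had no Siglech UMI, while the rest held every other barcode. For shares, each cell was thinned to 2000 UMIs (seed 1), which left out 395 cells of the rest and 0 members. Sub-clusters came from scanpy 1.11.5 and igraph 0.11.9 (1000 variable genes, 15 components, 15 neighbours, resolution 0.5). Doublets were kept, and removal by Scrublet was an alternative. Figures used matplotlib 3.10.9, and positions GENCODE M21. Ratios, intervals and thinning were tested on simulated data.

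Named genes were the 25 highest and 15 lowest ratios with at least 50 CPM, the 15 most abundant genes, the 10 highest and 10 lowest ratios of the Dntt split with a mean of at least 50 CPM, the 8 leading genes of sub-clusters, and list members. The members and lists were chosen with earlier results of these data known. Promoter motifs were not analysed here, and a few list members are not reported here.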

Additional observations from a re-analysis of the deposited data

How the results depend on the processing

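The number of members was 206 to 303 under the other rules, against 296. The counts of genes at least 2-fold higher or lower than the rest stayed within 1.5 times under every alternative but 1, a mean of 20 CPM, where 556 genes were lower in place of 838 and fewer genes were tested. The thinned share with Dntt and without Igll1 was 31.7 to 33.4% under the other member rules, but 16.9% at 1000 UMIs and 41.2% at 4000 UMIs in place of 32.4% at 2000 UMIs, since thinning sets how often a UMI is seen. The Dntt split gave 315 genes higher and 433 lower when cells were thinned to 2000 UMIs before the split, where counts are lower. In sub-clusters 1 to 3 alone it gave 38 and 22, in place of 74 and 169, and in sub-cluster 4 alone 206 higher. Leaving out the C1qa-high cells, chosen after the data were seen as were the choice of sub-clusters and a rest with no Siglech UMI, turned Fcrls (log2 ratio -1.91) and Sparc (at most -1.21, from the limit of 3 counts). Of 560 log2 ratios of 56 named genes under the alternatives, these 2 were reversed, 112 moved beyond counting error and 446 did not. No paired analysis was possible because the mouse data are 1 library.

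Without replicates, no spread between animals was measured, and a pool of 3 ages can differ in composition from any of them. UMIs of B-lineage genes were also seen in T and NK cells, so low levels of these genes in members are read against T and NK cells only. The source of such UMIs, for example free RNA from the many B-lineage cells, was not tested.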

Other observations

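The 15 lowest ratios held Tspan32, a tetraspanin of blood cells, at 0.89 CPM in members against 54.4 CPM in the rest and 41.1 to 81.4 CPM in each of the other named groups. Scd1, a fatty acid desaturase, had 1.11 CPM in members against 104.2 CPM in the rest, and was high in B-lineage cells (150.5 CPM) and low in T cells (4.94 CPM). The set also held Cplx2, a regulator of vesicle fusion (1.78 against 124.7 CPM), which was highest in pro-B cells (368.7 CPM). Genes of basophils and mast cells filled part of the same set, with Prss34 at 1.56 CPM in members against 103.0 CPM and Cpa3 at 1.11 against 70.0 CPM. The T and NK chemokine gene Xcl1 had 2.89 CPM in members against 148.3 CPM.

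Receptors of growth factors split in the members. Flt3 and Csf2rb, the shared beta chain of the GM-CSF and interleukin 3 receptors (151.4 CPM in members against 12.3 CPM in the rest), were higher, as was Notch1 (123.4 against 46.7 CPM). Kit, the stem cell factor receptor, was lower (6.67 against 23.8 CPM), and so were the progenitor regulators Sox4 (112.7 against 576.4 CPM) and Myb (66.9 against 330.2 CPM). Csf1r, at 106.5 CPM in all 296 members, was at 15.7 CPM without the C1qa-high cells.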
